A study of Mus musculus with 58 samples.

Results

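Serotonin receptor genes were represented on a custom mouse methylation array by 9 CpGs of 382, each at a different gene: Htr1a, Htr1b, Htr1d, Htr1f, Htr4, Htr5a, Htr5b, Htr6 and Htr7. They were taken by name, as every CpG whose gene name begins with Htr and a digit, except Htr2c. The rule itself uses no methylation value, but it was chosen with earlier results of these data known. No filter removed any of the 9. A CpG is a cytosine followed by a guanine, the usual site of DNA methylation in mammals, and its beta value runs from 0 (no copy methylated) to 1 (all copies methylated).

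Bisulphite-converted genomic DNA from dissected mouse brain was measured on 58 arrays, which gave 57 samples after a pair of arrays of CPU M4 was averaged. Healthy C57BL/6 mice gave 51 of the samples, from 10 regions. These were the basolateral amygdala (BLA, n = 5), CA3 of the hippocampus (n = 4), the caudate-putamen (CPU, n = 6), the dentate gyrus (DG, n = 5), the granular cell layer (GCL, n = 6), the globus pallidus (GP, n = 5), the hypothalamus (HYP, n = 5), Purkinje cells (PC, n = 4), the substantia nigra (SN, n = 6) and the thalamus (TH, n = 5). Frontal cortex came from wild-type mice on a C57BL/6 background (FC_WT, n = 2) and from mice of the genotype 3TG on a mixed C57BL/6-129 background (FC_3TG, n = 3), and CA1 of the hippocampus from the same 3TG genotype and background (CA1_3TG, n = 1). The labels do not spell out 3TG and give no age. Genotype and genetic background cannot be told apart in any 3TG comparison. Most samples carry a code (F4, for example) found in several regions. Nothing in the labels ties a code to an animal, and a p-value here reflects only how far the samples of a group scatter, which may be technical. Each region holds several cell types, and a changed mix of cells cannot be told apart from a change within a cell type.

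All FC_WT samples and 3 of the DG samples (F7, F8 and F9) carry another form of title than the rest, so that region and title form cannot be told apart for FC_WT. The array with the highest lower quartile of beta over all 382 CpGs was PC M3, at 0.0995, where the 53 samples without 3TG ran from 0.0456 with a median of 0.0568. Of 32 cell type marker genes listed, 11 were on the array. None of them marked Purkinje cells, and Gabra6, a receptor subunit of cerebellar granule cells, had its lowest mean in GCL (0.237) and its next lowest in PC (0.278).

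Serotonin is released across the forebrain by neurons of the raphe nuclei and acts through several families of receptors. Receptors of the Htr1 family couple to inhibitory G proteins, and some of them sit on serotonin neurons themselves and limit release. The products of Htr4, Htr6 and Htr7 couple to stimulatory G proteins and raise cyclic AMP, while those of the Htr5 family are less well understood. Methylation of CpGs near a gene's start is commonly low in genes with CG-rich promoters, whether or not the gene is transcribed in a given cell.

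Promoter sequence was taken from RefSeq for the mouse build GRCm38.p6, as windows from 250 bases before to 50 bases after each annotated start. All 9 genes matched the RefSeq gene table, and 7 of them had a window. The sources used here give neither the array's genome build nor the meaning of the number that follows the gene name, so where each array CpG lies relative to its window is not known. The windows of Htr1d are shown because its CpG was the only highly methylated member, those of Htr1a and Htr1f because these CpGs differed between regions, and that of Htr7 because it holds the most CG pairs. All run 5′ to 3′ with each CG in capitals.
Htr1d, first start site (chr4:136423274-136423573, + strand): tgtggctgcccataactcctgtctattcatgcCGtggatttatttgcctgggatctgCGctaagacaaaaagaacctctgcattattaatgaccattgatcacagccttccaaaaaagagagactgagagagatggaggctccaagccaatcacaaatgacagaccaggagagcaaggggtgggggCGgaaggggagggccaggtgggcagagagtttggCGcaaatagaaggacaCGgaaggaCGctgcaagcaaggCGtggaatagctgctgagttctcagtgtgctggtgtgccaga
Htr1d, second start site (chr4:136424362-136424661, + strand): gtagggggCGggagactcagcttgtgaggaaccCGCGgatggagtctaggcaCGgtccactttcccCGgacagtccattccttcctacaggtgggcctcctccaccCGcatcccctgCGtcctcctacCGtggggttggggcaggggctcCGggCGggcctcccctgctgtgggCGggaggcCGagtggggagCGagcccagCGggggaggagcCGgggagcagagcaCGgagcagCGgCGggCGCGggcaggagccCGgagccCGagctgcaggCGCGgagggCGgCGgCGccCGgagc
Htr1a (chr13:105443443-105443742, + strand): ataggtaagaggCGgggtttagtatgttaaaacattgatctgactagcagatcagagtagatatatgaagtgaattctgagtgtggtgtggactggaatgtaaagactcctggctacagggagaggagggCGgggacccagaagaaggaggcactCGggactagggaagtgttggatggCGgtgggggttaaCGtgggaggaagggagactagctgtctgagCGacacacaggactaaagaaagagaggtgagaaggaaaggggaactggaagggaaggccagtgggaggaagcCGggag
Htr1f (chr16:65105735-65106034, - strand): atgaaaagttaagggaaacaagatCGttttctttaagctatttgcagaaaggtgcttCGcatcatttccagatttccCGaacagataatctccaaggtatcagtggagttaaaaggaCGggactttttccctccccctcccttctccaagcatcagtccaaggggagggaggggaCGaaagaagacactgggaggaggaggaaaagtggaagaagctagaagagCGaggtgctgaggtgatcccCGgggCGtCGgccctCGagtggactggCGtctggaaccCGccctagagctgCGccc
Htr7 (chr19:36057311-36057610, - strand): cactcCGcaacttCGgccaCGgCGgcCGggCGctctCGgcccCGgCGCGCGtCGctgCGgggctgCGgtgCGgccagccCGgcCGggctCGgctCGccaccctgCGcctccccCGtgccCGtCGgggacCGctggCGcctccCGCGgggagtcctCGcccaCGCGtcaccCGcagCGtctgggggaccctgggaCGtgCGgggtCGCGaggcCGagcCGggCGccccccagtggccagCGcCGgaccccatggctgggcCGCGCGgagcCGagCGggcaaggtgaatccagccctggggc

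The first Htr1d window holds 7 CG pairs and the second 28. Htr1a has 7, Htr1b 11, Htr1f 13, Htr5a 14 and Htr7 46. Htr6 has a pair of windows with 29 and 10. The search was for the letters CG, which read the same on both strands. Over 32851 windows of the same length the median was 7, and 94.6% held at least 1 CG. The Htr7 window held more CG pairs than 98.4% of all windows.

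Mean beta was 0.173 or lower at 7 of the 9 CpGs. Htr1d, an inhibitory receptor on nerve terminals, had a mean beta of 0.897 over the 53 C57BL/6 samples of 11 regions. Htr1b, its close relative and likewise a terminal autoreceptor, had the lowest mean, 0.0401. Htr7 (0.0722), Htr1f (0.0732), Htr1a (0.0738), Htr4 (0.0863) and Htr6 (0.0886) lay close together. Htr5a was higher at 0.173 and Htr5b at 0.248. Values at different CpGs come from different probes, so this order is a description of the array's readings.

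The median of these means was 0.0863 for the serotonin receptor CpGs and 0.110 for all 382. It was 0.0957 for 5 dopamine receptor CpGs, 0.0725 for 9 adrenergic, 0.740 for 5 muscarinic and 0.326 for 4 histamine receptor CpGs. Of the 284 array CpGs whose gene has a promoter window, the 204 with at least 10 CG pairs in their richest window had a median beta of 0.0820, and the 80 others 0.514. Htr1d, with 28 pairs in its richest window and a mean of 0.897, lay far above the first median. Its other window holds 7 pairs, under the cut of 10, and where its array CpG lies is not known. Htr1a, with 7 pairs and a mean of 0.0738, lay far below the second.

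**Figure D1:**
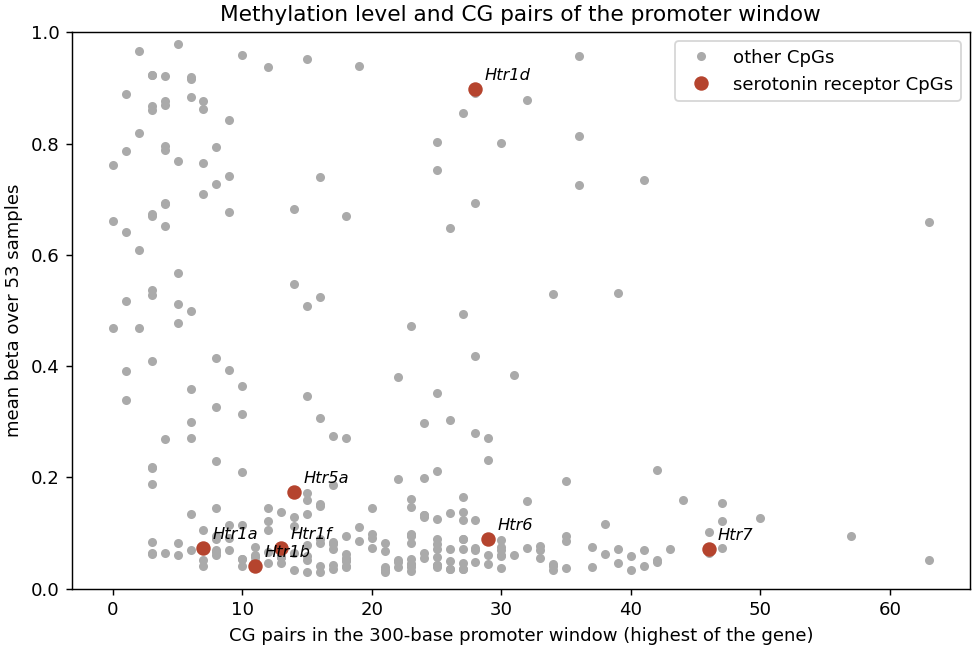
Mean beta over 53 samples (vertical axis) against the number of CG pairs in the gene's richest 300-base promoter window (horizontal axis), for 284 array CpGs. Each point is a CpG, and the 7 named points are serotonin receptor genes: Htr1d sits at 0.897 with 28 pairs, while the other 6 lie at 0.173 or lower.

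Whether methylation differed among the 11 regions was tested with limma's moderated F-test on log2(beta / (1 - beta)), adjusted by Benjamini-Hochberg over all 382 CpGs and called at an adjusted p under 0.05. Of the 9 CpGs, 4 were called: Htr4 (adjusted p = 4.98e-06), Htr1d (2.12e-05), Htr1a (0.000103) and Htr1f (0.0264). Over the whole array 44.5% of CpGs were called, so the members' share lies at the background. Htr7 (0.0553), Htr5a (0.133), Htr1b (0.314), Htr5b (0.440) and Htr6 (0.721) were not called. Htr7 lay near the threshold and was called in 10 of 53 fits that left out 1 sample, with its lowest adjusted p (0.0175) without DG F3. Among the other receptor families the same test called 1 of 5 dopamine, 5 of 9 adrenergic, 3 of 5 muscarinic and 2 of 4 histamine receptor CpGs.

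The differences were small in absolute terms. The gap between the highest and lowest region mean had a median of 0.0509 over the 9 CpGs and 0.0496 over all CpGs. Of the 9, only Htr5b, at 0.148, reached 0.1, where 110 of all 382 CpGs did. Among the 242 CpGs with a mean under 0.2, 19 did. In the order of region means, no neighbouring regions were called different for any of the 9 CpGs (0 of 10 neighbouring pairs each). The regions were sorted by these same means, so neighbours lie close by construction and this count says little about the size of the differences. Over all 55 pairs of regions the 9 CpGs gave 65 calls, while 14.9% of the tests over all CpGs and pairs were called. Htr1a and Htr4 had 17 each, Htr1d 11, Htr1f 8, Htr7 5, Htr1b 4 and Htr5a 3, and Htr5b and Htr6 had 0.

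**Figure D2:**
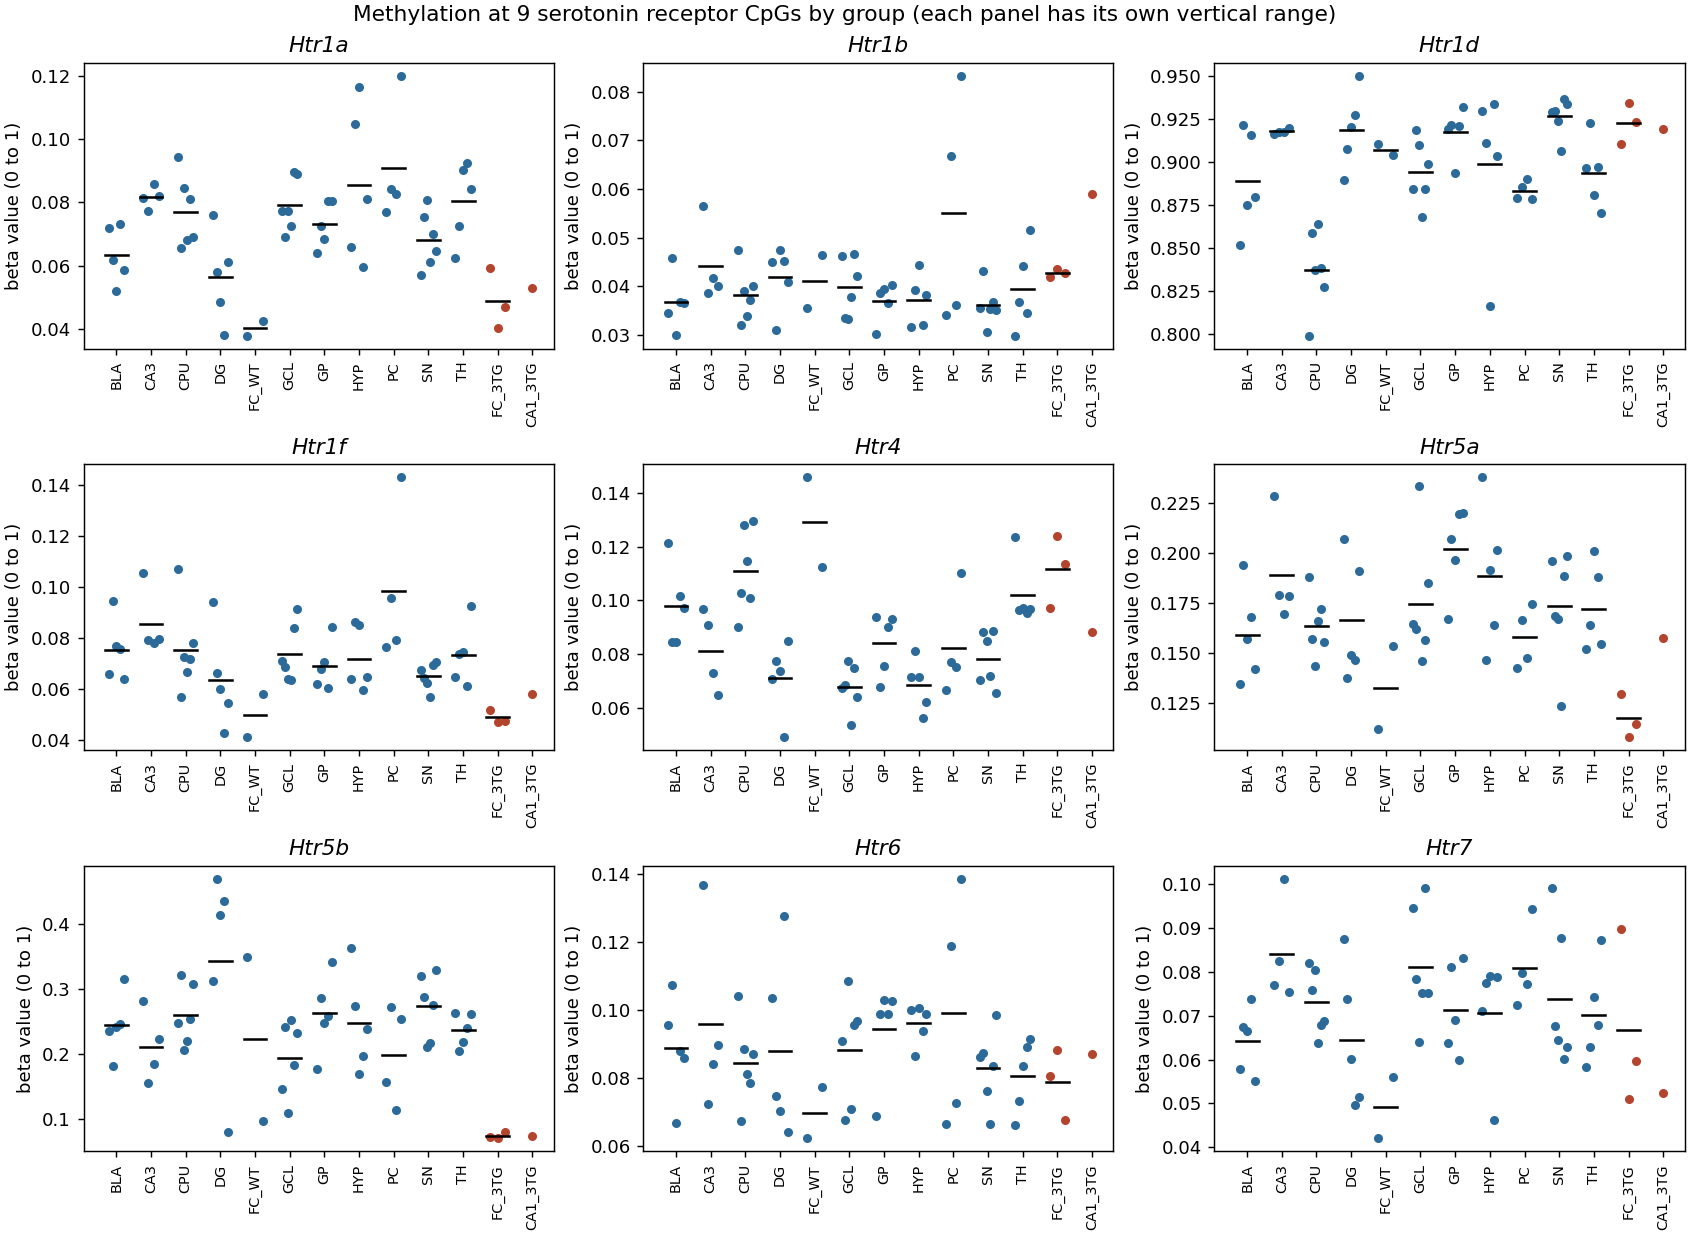
Beta value of each sample (points) at the 9 CpGs by group, with the group mean as a bar, in blue for the 11 C57BL/6 regions and in red for the 3TG groups. The vertical range differs between panels; the 6 CPU samples are low at Htr1d (0.799 to 0.864), and the 4 3TG samples lie at 0.0705 to 0.0810 at Htr5b.

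Each region was then set against the unweighted mean of the other 10. The 9 CpGs gave 14 calls. Over all CpGs this comparison called 6.81% in BLA, 2.09% in CA3, 9.95% in CPU, 24.1% in DG, 31.7% in FC_WT, 22.3% in GCL, 0% in GP, 9.95% in HYP, 46.6% in PC, 14.9% in SN and 7.07% in TH. The members' calls numbered 4 in FC_WT, 3 in PC, 2 each in CPU and DG, 1 each in GCL, HYP and SN, and 0 in BLA, CA3, GP and TH.

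**Figure D3:**
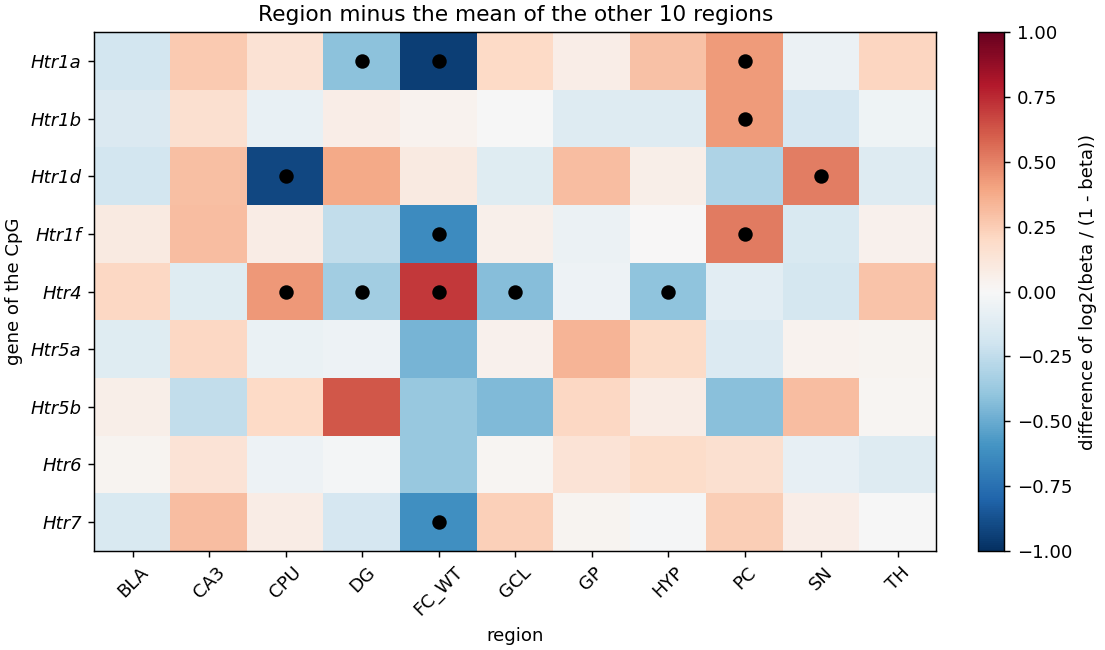
Difference of log2(beta / (1 - beta)) between each region (columns) and the mean of the other 10 regions, for the 9 CpGs (rows), with red for higher and blue for lower. Black dots mark the 14 calls at an adjusted p under 0.05; the darkest blue cells are Htr1a in FC_WT at -0.94 and Htr1d in CPU at -0.91.

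Htr1d was less methylated in the caudate-putamen than elsewhere. Its 6 CPU samples had a lowest beta of 0.799, a median of 0.838 and a highest of 0.864, with a mean of 0.838 ± 0.0234 (SD, n = 6). The means of the other 10 regions ran from 0.883 in PC to 0.927 in SN. Only 2 of the 47 samples of other regions, BLA F1 (0.852) and HYP F4 (0.817), fell within the range of CPU. The log2 difference was -0.91 ± 0.15 (SE), with an adjusted p of 5.76e-06 by limma, and CPU took part in 8 of the 11 pairs of regions called for Htr1d.

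At the other end of the Htr1d order stood the substantia nigra, with samples from 0.906 to 0.937, a median of 0.929 and a mean of 0.927 ± 0.0109 (SD, n = 6). It was higher than the rest by 0.51 on the log2 scale (adjusted p = 0.0113, limma), although 21 of 47 samples of other regions lay at or above its lowest value. That call was lost without SN M3 (adjusted p = 0.0566) and with quantile normalization (0.174). Htr1d in CA3 was the tightest group, with 0.918 ± 0.00155 (SD, n = 4).

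Htr1a encodes an inhibitory receptor found on raphe neurons and on forebrain neurons, and its CpG was lowest in frontal cortex. The FC_WT samples had betas of 0.0378 and 0.0423, a mean of 0.0401 ± 0.00324 (SD, n = 2). Only 1 of 51 samples of other regions, DG F8, lay between these values. The log2 difference was -0.94 ± 0.19 (SE; adjusted p = 0.000186, limma), the lowest among the member and region comparisons, and it was called with either FC_WT sample left out.

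Htr1a was also lower in the dentate gyrus, where F3, M2, F7, F8 and F9 had betas of 0.0761, 0.0580, 0.0485, 0.0380 and 0.0610. The log2 difference was -0.41 (adjusted p = 0.0132, limma). This difference turned to 0.0284 in the fit with the replicate code as a fixed term and without FC_WT. M2, F7, F8 and F9 have codes found in no other region, so that value rests on F3 alone, the highest DG sample. Of the 48 samples of other regions, 24 lay at or below the highest DG value. The call was lost without F7 (adjusted p = 0.0530) or without F8 (0.185). Within DG the samples F7 to F9, of the other title form, averaged 0.0491 and F3 and M2 0.0671, and without F7 to F9 neither Htr1a nor Htr4 was called in DG.

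Htr1a, Htr1b and Htr1f were each called higher in Purkinje cells, and each of these calls rested on PC M3. For Htr1a the samples F1, F2, F4 and M3 read 0.0769, 0.0843, 0.0826 and 0.120, a log2 difference of 0.42 (adjusted p = 0.0133, limma). For Htr1f, another inhibitory receptor, they read 0.0762, 0.0954, 0.0792 and 0.143, a difference of 0.52 (adjusted p = 0.00628). For Htr1b they read 0.0341, 0.0667, 0.0362 and 0.0832, a difference of 0.43 (adjusted p = 0.0192). M3 was the highest PC sample at all 3 CpGs and F2 the next highest. Without M3 the adjusted p was 0.250 for Htr1a, 0.230 for Htr1f and 0.444 for Htr1b, and without F2 it was 0.169 for Htr1b. The median log2 difference of all 382 CpGs was 0.20 in PC, and that of the 9 members 0.16. With each array centred on its median, Htr1a and Htr1b were no longer called in PC.

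Htr1f was lower in frontal cortex, at 0.0410 in 1_a and 0.0580 in 3. The log2 difference was -0.63 (adjusted p = 0.0172, limma), and it was lost without 1_a (adjusted p = 0.445). The median over all CpGs in FC_WT was -0.19, and with centred arrays the Htr1f call was lost as well. The F-test of Htr1f over regions was lost without FC_WT 1_a (adjusted p = 0.105), without PC F2 (0.0504) or without PC M3 (0.0782).

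Htr4, whose product raises cyclic AMP in neurons and in the gut, had the most regional calls of the 9 CpGs. It was higher in CPU and in frontal cortex and lower in GCL, HYP and DG. The CPU samples had a lowest beta of 0.0903, a median of 0.109 and a highest of 0.129, and the GCL samples 0.0538, 0.0680 and 0.0774. Of the 47 samples of other regions, 16 lay at or above the lowest CPU value and 17 at or below the highest GCL value. The log2 difference from the other regions was 0.43 in CPU (adjusted p = 0.00335, limma) and -0.42 in GCL (0.00185). Leaving out any 1 sample ended neither call.

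In frontal cortex Htr4 read 0.146 in 1_a and 0.112 in 3. This was the highest mean of any region, 0.129 ± 0.0236 (SD, n = 2), with a log2 difference of 0.70 (adjusted p = 0.00226, limma). Without 1_a the call was lost (adjusted p = 0.204). Frontal cortex was thus higher at Htr4 and lower at Htr1a, Htr1f and Htr7, against a median of all CpGs that was lower.

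The hypothalamus had Htr4 betas from 0.0563 to 0.0811, a log2 difference of -0.40 (adjusted p = 0.0158, limma) that was lost without M1 (0.144) or M3 (0.0640). In DG the samples F3, M2, F7, F8 and F9 read 0.0708, 0.0775, 0.0738, 0.0493 and 0.0850, with a difference of -0.35 (adjusted p = 0.0232). F8 was the lowest, and without it the DG call was lost (adjusted p = 0.283), as it was with quantile normalization or centred arrays. The thalamus mean of Htr4 was 0.102 ± 0.0121 (SD, n = 5), the highest after FC_WT and CPU, and was not called.

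Htr7, a stimulatory receptor of thalamus, hypothalamus and limbic cortex, was lower in frontal cortex, at 0.0420 in 1_a and 0.0561 in 3. The log2 difference was -0.61 (adjusted p = 0.0108, limma), and it was lost without 1_a (0.358) and with centred arrays. Its other region means ran from 0.0642 in BLA to 0.0840 in CA3. All 5 of its called pairs of regions included FC_WT.

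Htr6, a stimulatory receptor enriched in striatum and hippocampus, showed no regional call. FC_WT had the lowest region mean, 0.0698 ± 0.0107 (SD, n = 2), and PC the highest, 0.0991 ± 0.0351 (SD, n = 4). The PC samples F1, F2, F4 and M3 read 0.0666, 0.119, 0.0725 and 0.138, a wider range than that of the region means. CPU, one of its known sites of expression, had 0.0845 ± 0.0122 (SD, n = 6).

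Htr5a, a receptor coupled to inhibitory G proteins, had its lowest mean in FC_WT, at 0.133 ± 0.0294 (SD, n = 2), and its highest in GP, at 0.202 ± 0.0218 (SD, n = 5). Its difference in FC_WT missed the threshold (adjusted p = 0.0529, limma; log2 difference -0.47). It passed in 10 of 53 fits that left out 1 sample, and without FC_WT 3 the difference was -0.73 (0.0470). Without FC_WT 1_a it was -0.21. The 3 FC_3TG samples of Htr5a, at 0.108, 0.115 and 0.130, lay near the FC_WT samples at 0.112 and 0.154.

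Htr5b, which encodes a receptor in rodents and is disrupted in humans, varied widely between samples of the same region. Its lowest beta was 0.0705 in an FC_3TG sample and its highest 0.470 in DG M2. The DG samples F3, M2, F7, F8 and F9 read 0.313, 0.470, 0.415, 0.436 and 0.0802. F9 differed from the mean of the other DG samples by 0.328, where the median of this gap over all 382 CpGs was 0.0159. F9 was singled out from these same Htr5b values, so its gap is a description. DG had the highest region mean with and without F9, at 0.343 with all samples. Without F9 the F-test over regions called Htr5b (adjusted p = 0.0112, limma).

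The FC_WT samples of Htr5b also lay far apart, at 0.350 in 1_a and 0.0976 in 3. Their gap of 0.253 was the largest of all 382 CpGs, with a median of 0.0123. The titles of DG F9 and of FC_WT 3 both carry the number 3 after a wild-type prefix, though that of FC_WT 3 continues with /2. The labels do not say whether these samples come from the same mouse. The 6 lowest Htr5b values of all 57 samples were these 2 and the 4 3TG samples. The next was GCL F4 at 0.110.

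Within regions, Htr5b followed the replicate code. In a test added after these values were seen, limma's F-test over 8 codes with region as a covariate (48 samples) gave F = 9.43 and an adjusted p of 3.12e-05. It called 4.19% of all CpGs, 16 in number, and 1 of the 9 members. Of the 16, 15 were also called between F-coded and M-coded samples, and the other was Htr5b.

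The samples of code F4 had a mean Htr5b beta of 0.170 ± 0.0377 (SD, n = 9), against 0.219 ± 0.0232 for M1 (n = 7), 0.244 ± 0.0269 for M3 (n = 8), 0.251 ± 0.0803 for F1 (n = 7), 0.273 ± 0.0270 for F2 (n = 7) and 0.288 ± 0.0479 for M4 (n = 7). The highest means were those of the codes with the fewest samples, F3 at 0.297 (n = 2) and M2 at 0.470 (n = 1, a DG sample with no replicate). F4 was the lowest sample in 9 of the 9 regions that held it. Among the other members F4 was lowest in at most 4 of 9 regions, at Htr1b. This pattern was taken from the Htr5b values themselves and no other code was counted this way, so these counts are a description. The call held in each of 48 fits that left out 1 sample, and, in an alternative added later, without the codes F3 and M2 (F = 11.1). Whether a difference in DNA sequence under the probe contributes to the Htr5b values was not tested.

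**Figure D4:**
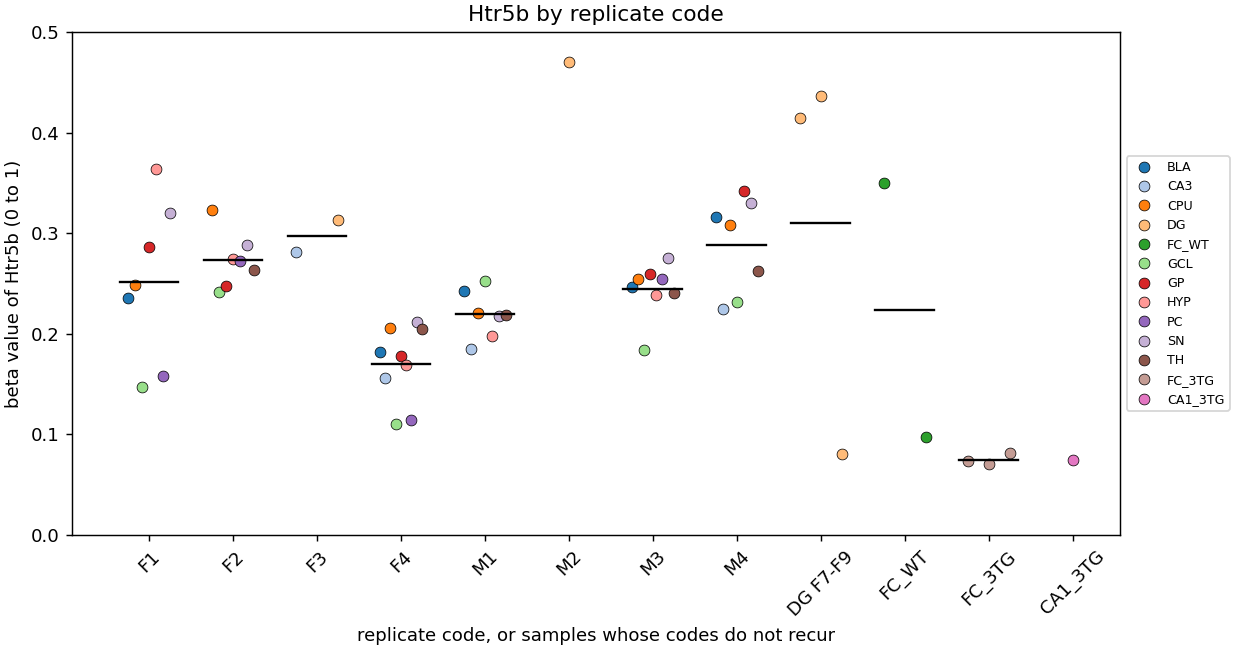
Htr5b beta of each sample (points, coloured by group) by replicate code, followed by the DG and frontal cortex samples whose codes do not recur and the 3TG samples; bars are means. The F4 samples average 0.170, below the means of the other codes, and DG F9 (0.0802) and FC_WT 3 (0.0976) lie beside the 3TG samples.

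The genotype comparison was made in frontal cortex, 3TG minus wild type, with the spread taken from all 13 groups. None of the 9 CpGs was called, where 1.31% of all CpGs were; 1 member and 23 CpGs had an unadjusted p under 0.05. That member was Htr5b, at 0.0732, 0.0705 and 0.0810 in the 3TG samples and 0.350 and 0.0976 in wild type. The groups did not overlap, as at 29.8% of all CpGs (114 of 382), and Htr5b was the only member for which this was so. The log2 difference was -1.58, with a 95% interval from -2.72 to -0.44 (adjusted p = 0.253, limma). The size rested on the wild-type samples: without FC_WT 1_a the difference was -0.42 (adjusted p = 0.958), and without FC_WT 3 it was -2.74 and was called (0.0158). The single CA1_3TG sample read 0.0745.

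The 8 other members had log2 differences between -0.23 at Htr4 and 0.45 at Htr7. Their 95% intervals all included 0, and the widest of them, that of Htr1d, ran from -0.32 to 0.91. At Htr1a the 3TG samples read 0.0594, 0.0401 and 0.0469, close to the low wild-type cortex values.

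**Figure D5:**
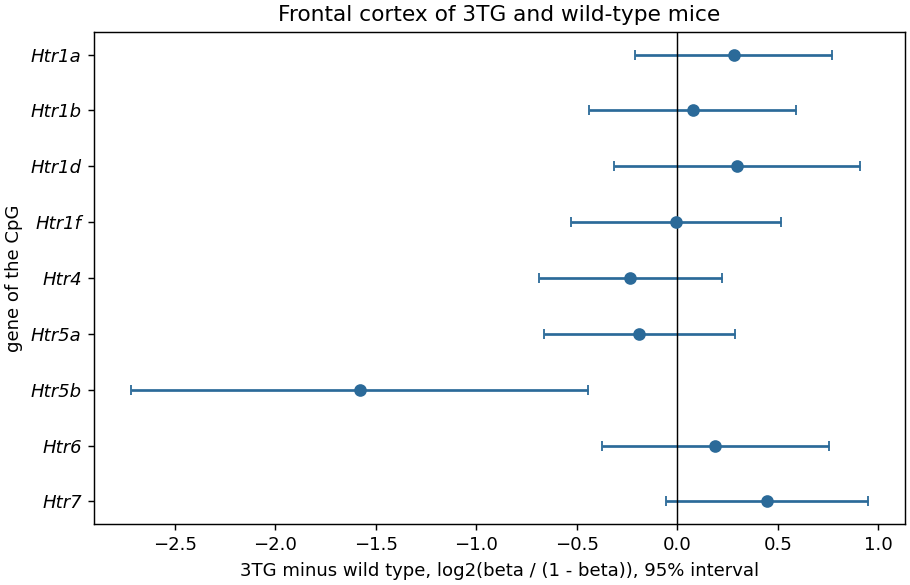
Difference between FC_3TG (n = 3) and FC_WT (n = 2) on the log2(beta / (1 - beta)) scale for the 9 CpGs, with 95% intervals as bars. The interval of Htr5b runs from -2.72 to -0.44, and those of the other 8 include 0.

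Between F-coded and M-coded samples, with region as a covariate, none of the 9 CpGs was called by limma. None had an unadjusted p under 0.05, where 30 CpGs did and 3.93% of all CpGs were called. The labels do not say that these letters give the sex. The estimate farthest from 0 was -0.27 at Htr5b, with a 95% interval from -0.60 to 0.07. The fit had no term for the replicate code, which Htr5b followed within regions, so that interval may be too narrow. The interaction of code letter and region was called for 0% of CpGs and for none of the members by limma, with 71 CpGs and 1 member (Htr1b) at an unadjusted p under 0.05.

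Region means of the members were compared with each other and with the other CpGs as a description over 11 regions, whose means share arrays and array-wide level. Htr1a and Htr7 had a Pearson r of 0.910, Htr1a and Htr1f 0.880, and Htr1f and Htr7 0.858. Htr4 ran the other way from Htr6 (-0.70) and Htr5a (-0.63). The CpGs most like Htr1a were those of Spry2 (0.962) and Mchr1 (0.95), and those most like Htr1f were Cdk5r1 (0.975) and Gnpat (0.968).

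For Htr7 they were Clic5 (0.927) and Spry2 (0.923), for Htr1b Hspa8 (0.955) and Notch2 (0.947), and for Htr6 Pea15a (0.924) and Qk (0.892). Likeness was lower for Htr5a, with Chrm5 (0.855) and Camk2a (0.812), and for Htr5b, with Notch3 (0.832) and Cdh23 (0.815). It was lowest for the members with the smallest adjusted p over regions, Htr1d (C5ar1 at 0.697 and Ifng at 0.681) and Htr4 (Grin2d at 0.695 and Myo7a at 0.688).

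Of 28 other genes of serotonin synthesis, transport, breakdown and signalling, 1 was on the array. This was Slc6a4, the serotonin transporter that returns serotonin to the neuron. Its region means ran from 0.0695 in GP to 0.0801 in PC and did not pass the F-test (adjusted p = 0.948, limma).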

How the data were processed

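Genomic DNA was phenol-extracted, bisulphite-converted and hybridised to a custom Illumina GoldenGate array, per the labels and the design text. The authors deposited 1 beta value, a fraction between 0 and 1, for each of 382 CpGs on each of 58 arrays. The sources used here do not give the background correction, normalization or filters. No value was missing. Bead numbers were not used here, so the depth behind each value is unknown.

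CPU M4_a and M4_b (r = 0.987) were averaged to 1 replicate. Beta was limited to 0.01 to 0.99, turned into log2(beta / (1 - beta)) and tested with limma 3.58.1 in R 4.3.3 (lmFit, eBayes) over all CpGs, with Benjamini-Hochberg adjustment and a threshold of 0.05. Regions were fitted over 53 samples, 3TG over 13 groups, and code letters with region as a covariate. The fits were tested on simulated data. Alternatives were scale, limits, normalization, centring, filters, variance moderation, replicate block and left-out samples. All 9 members are named, with the 2 CpGs most like each. The members and lists were chosen with earlier results of these data known. Summaries and plots used Python 3.11.15 with pandas 2.3.3, numpy 2.4.6 and matplotlib 3.10.9.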

Additional observations from a re-analysis of the deposited data

Results flagged for a closer look

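A single sample stood apart from the rest of its group in 6 of the 90 groups of members and regions tested, by Dixon's criterion, where chance gives about 1 in 20. Htr1d in HYP F4 was 0.817, below the other hypothalamus samples at 0.904 to 0.934. Htr7 in HYP M1 was 0.0462, with the others at 0.0711 to 0.0791. In CA3 the sample F3 was high at both Htr1f (0.105, others 0.0778 to 0.0796) and Htr5a (0.229, others 0.169 to 0.179). Htr4 in TH F2 was 0.124, with the others at 0.0952 to 0.0971. Htr6 in GP F4 was 0.0690, with the others at 0.0987 to 0.103.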

How the results depend on the processing

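Leaving out each sample in turn gave 3 to 5 members called over regions (4 with all samples), 11 to 16 calls of a region against the rest (14) and 44 to 78 pair calls (65). It gave 0 to 1 for 3TG, where Htr5b was called without FC_WT 3, 0 to 1 for the interaction, without PC F2, 0 for code letters and 1 for replicate codes. Without FC_WT there were 7 region and 36 pair calls, and with the code letter as covariate, also without FC_WT, 9 and 37. Without FC_WT and DG F7 to F9, a choice made after seeing the data, 2 members were called over regions, with 9 region and 32 pair calls. Requiring a difference of at least 0.1 in beta left 0, 0 and 0 for the members. Over all CpGs, 110 of 382 had a range of region means that large, called or not. Limits of 0.05 to 0.95 on beta gave 1 interaction call. Without PC F2 and M3, also chosen after seeing the data, Htr1b in PC turned to -0.15, and Htr1a (0.24) and Htr1f (0.19) lost their PC calls. In PC, quantile normalization ended the calls of Htr1a and Htr1b and gave a lower call at Htr4 (-0.38). In SN it ended that of Htr1d, and in GCL it gave higher calls at 3 members. The cause was not tested.

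The replicate block as a fixed term, without FC_WT, gave 8 region and 32 pair calls, turned Htr1a in DG to 0.0284, and called Htr5b over regions (adjusted p = 0.0190, limma). Of 149 same-code pairs of samples, 116 had deviations correlated over 0.1 (median 0.332, lowest -0.549; median -0.0702 for 1019 pairs of other codes). Not every pair did, so the codes were not taken as pairs, although same-code samples were more alike in the median. Such pairs always share the code letter, while the pairs of other codes were pooled over both letters, so this comparison does not separate code from letter. The best match had the same code for 18 of 47 samples. As a random block the correlation was -0.0178. No alternative ended the replicate-code call of Htr5b. Signal over background was not used here, so its limits on betas near 0 are not known, and the number of arrays limits the precision.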
